A study of Mus musculus with 20 samples.

Results

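The 34 genes described here are expressed by the endothelial cells that line brain vessels. They cover the main parts of the blood-brain barrier: growth factor receptors, junction and adhesion proteins, transporters, transcription factors, and secreted or surface proteins. They were taken by gene symbol from a table of 29671 genes, each symbol matched 1 row, and all 34 were among the 16727 genes with enough counts to be tested. RNA was sequenced from punches of the amygdala, taken on both sides, of 20 C57B6 mice, all male and at postnatal day 84. They had been bred in house from a Taconic strain and had been through no behavioural test. There were 4 groups of 5 mice: the F1 and the F2 generation of a lineage that began with chronic unpredictable stress (F1 stress, F2 stress), and the same generations of a lineage without it (F1 no-stress, F2 no-stress). The labels give no litter, sire, dam or batch. The question, from the title of the series, is whether stress in adolescence is followed by differences in the amygdala transcriptome of later generations.

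Brain endothelial cells form a wall that is sealed by tight junctions and crossed mainly through transporters. Vascular endothelial growth factor, the angiopoietins, Wnt ligands and Notch ligands act on receptors of these cells to build vessels and to keep the barrier closed. The transcription factors Erg, Fli1, Sox17 and Sox18 take part in the endothelial programme. Several genes of the set are not confined to endothelium: Bsg, Tjp1, Slc2a1, Slc16a1 and Podxl are also made by neurons or glia.

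Coding sequences are shown first because base composition went along with the differences reported later. The lines give coding bases 1 to 90, from the start codon, of the GENCODE M21 transcript (GRCm38) with the longest coding sequence. Capitals mark G and C. The first 3 are the genes called in a comparison, and the last 3 are the members with the lowest GC content. That choice fixed the contrast between them in advance. Members that were not called could be GC-rich too, with 60.9% in the longest transcript of Sox18, 57.6% in Bsg and 56.7% in Ramp2.
Cldn5: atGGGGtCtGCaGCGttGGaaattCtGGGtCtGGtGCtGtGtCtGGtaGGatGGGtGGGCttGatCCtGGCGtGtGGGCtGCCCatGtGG
Egfl7: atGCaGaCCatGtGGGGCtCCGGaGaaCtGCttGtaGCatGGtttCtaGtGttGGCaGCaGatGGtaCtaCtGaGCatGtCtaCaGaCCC
Tie1: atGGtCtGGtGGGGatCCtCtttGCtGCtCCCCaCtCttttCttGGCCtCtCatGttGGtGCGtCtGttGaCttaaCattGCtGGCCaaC
Abcg2: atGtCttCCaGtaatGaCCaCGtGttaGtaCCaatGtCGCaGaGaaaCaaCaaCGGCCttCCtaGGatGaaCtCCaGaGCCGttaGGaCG
Slco1a4: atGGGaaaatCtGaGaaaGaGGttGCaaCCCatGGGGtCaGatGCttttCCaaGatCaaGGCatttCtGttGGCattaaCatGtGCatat
Emcn: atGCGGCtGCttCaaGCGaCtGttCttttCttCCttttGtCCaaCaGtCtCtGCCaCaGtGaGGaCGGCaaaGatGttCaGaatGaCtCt
G or C filled 54 of these 90 positions in Cldn5, 47 in Egfl7 and 47 in Tie1. The counts were 44 in Abcg2, 38 in Slco1a4 and 43 in Emcn. Over the whole coding sequence the share of G and C was 64.1% in Cldn5, 58.5% in Egfl7 and 58.3% in Tie1, against 43.4% in Abcg2, 42.4% in Slco1a4 and 44.8% in Emcn. On GRCm38, Cldn5 lies at chr16:18776847-18778262, Egfl7 at chr2:26580014-26593120 and Tie1 at chr4:118471191-118490061, and all 3 are protein-coding genes.

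The total count per library lay between 13654890 and 13714805, a spread of 0.439%. Totals this close come from a step before deposit that set them, and how deeply each library was sequenced is unknown. Neuronal genes were present in all 20 libraries, at levels that for some differed widely. Slc17a7, of excitatory neurons, ranged from 28.7 to 957 CPM (counts scaled to a common library total by TMM), with a median of 571. Gad2, of inhibitory neurons, ranged from 423 to 887 CPM (median 584). Rspo2, of the basolateral amygdala, ranged from 0.911 to 41 CPM (median 4.64). Prkcd, of the central amygdala, ranged from 6.82 to 45.4 CPM (median 14.2). Each F2 group held a library with low region markers by an earlier analysis, numbered 14 in stress and 20 in no-stress mice. Fits without both are given below, and the part of region differences between punches in the F2 values was not tested. F2 stress replicate 14 stood apart for the vessel genes, with the lowest value of all 20 libraries in 20 of the 34 members. It was also the lowest in the summed CPM of 12 microglial markers (352) and of 9 oligodendrocyte markers (1779). F2 stress replicate 13 had the highest value of all libraries in 15 members and F2 stress replicate 15 in 6.

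All 34 genes were detected in every library, with at least 15 counts. On the scale of CPM per kb of the longest transcript, Bsg (basigin, the partner of lactate transporters) had the highest level at 164 ± 16.7 (mean ± SD, 20 libraries). Next came the membrane protein gene Itm2a at 30.6 ± 5.13, the adrenomedullin receptor partner Ramp2 at 28.4 ± 3.27 and the surface antigen gene Ly6c1 at 27.9 ± 5.602, whose levels lay within 1 SD of each other. The transporters followed, with levels of 20.4 ± 3.11 CPM per kb for Slco1c1, which carries thyroid hormone, 20.2 ± 4.30 for Slc2a1, the glucose transporter GLUT1, and 15.3 ± 2.74 for Slco1a4, an organic anion carrier. Cldn5, the claudin that seals tight junctions of the barrier, ranked 11 of 34 at 10.2 ± 2.56 CPM per kb, within 1 SD of Flt1 at 10.7 ± 2.03 and Egfl7 at 8.92 ± 1.68. The transcription factors were at the low end, with levels of 1.43 ± 0.337 for Erg, 1.40 ± 0.486 for Sox18, 0.966 ± 0.240 for Fli1 and 0.942 ± 0.245 for Sox17. The order depends on the length used: the union of annotated exons moved 14 of the 34 levels by more than 1 SD.

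**Figure D1:**
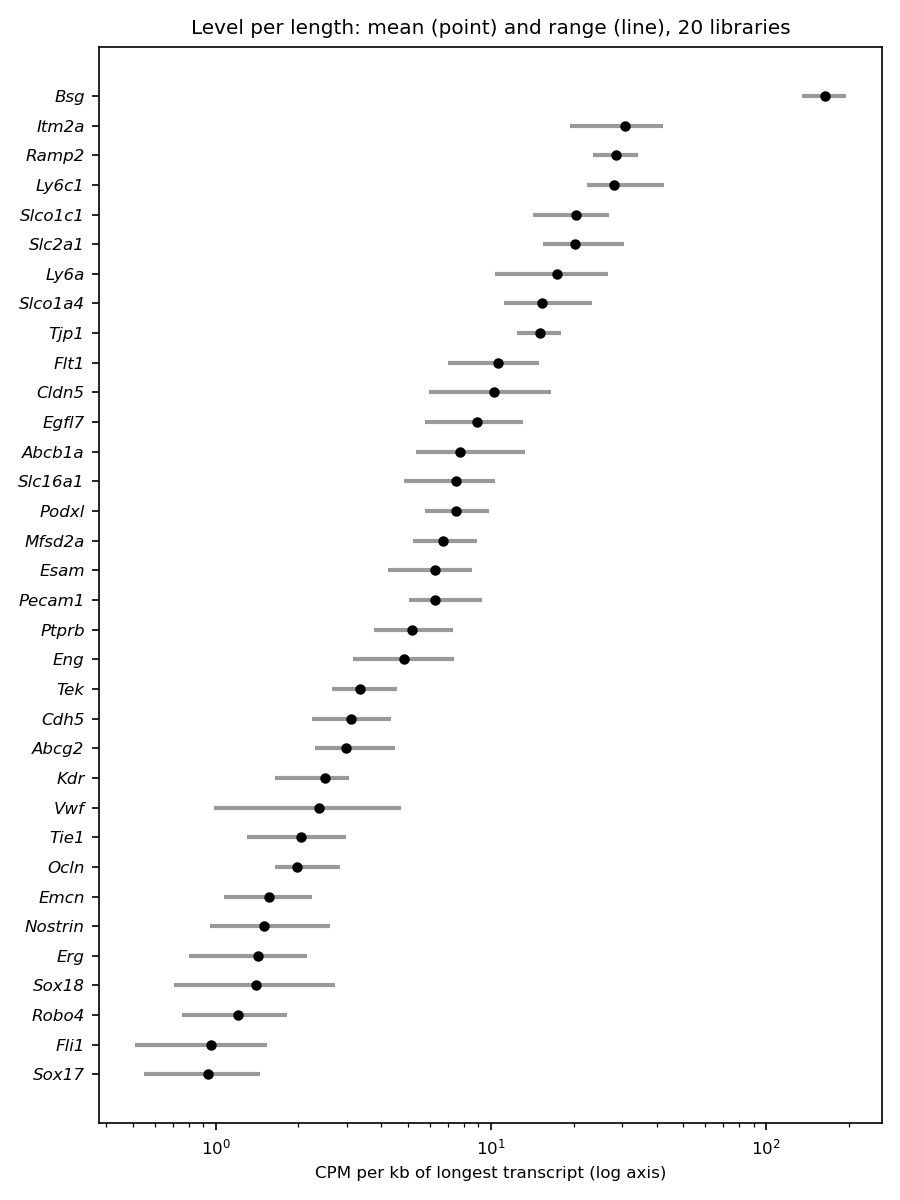
Level of each of the 34 members in CPM per kb of the longest transcript, on a log axis. Points are means and lines the range over 20 libraries; Bsg is highest at 164 and Sox17 lowest at 0.942.

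In the F2 generation, Cldn5, the receptor gene Tie1 and the secreted angiogenic factor gene Egfl7 were lower in stress than in no-stress lineage mice, and no member was higher. Calls rest on the edgeR quasi-likelihood F test with p-values adjusted after Benjamini and Hochberg over all genes tested, at a threshold of 0.05. Of all 16727 genes, 7.92% were called, 2.64% higher and 5.28% lower in F2 stress mice. With 3 of 34 members lower and 0 higher, the members' share was near that background, so the count is not a result about vessel genes as a group. In bulk tissue, fewer endothelial cells and less RNA per cell cannot be told apart. The p-values set a difference against the spread between mice, estimated from all 20 libraries of the 4 groups and not from F2 alone. Litters are not labelled, so mice that share one could not be taken into account.

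Egfl7, a matrix protein that endothelial cells secrete, had 20.5, 24.3, 18.8, 19.8 and 18.8 CPM in the F2 no-stress mice (replicates 16 to 20). In the F2 stress mice (replicates 11 to 15) it had 13.2, 10.8, 14.7, 13.66 and 16.8 CPM. Every F2 stress library lay below every F2 no-stress library. The log2 fold change was −0.57 ± 0.11 (SE; adjusted p = 0.0107, edgeR), with group means of 20.4 ± 2.29 and 13.8 ± 2.20 CPM (SD, n = 5 each).

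Tie1, a receptor that modulates angiopoietin signalling through its relative Tek, had 12.6, 10.5, 11.5, 9.55 and 9.76 CPM in the F2 no-stress mice. In the F2 stress mice it had 5.50, 6.75, 7.41, 7.04 and 9.51 CPM. The groups did not overlap, though the highest F2 stress library, replicate 15, nearly met the lowest F2 no-stress library, replicate 19. For Tie1 the log2 fold change came to −0.58 ± 0.16 (adjusted p = 0.0287, edgeR), with group means of 10.8 ± 1.27 and 7.24 ± 1.46 CPM (SD, n = 5 each).

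Cldn5 had 18.1, 19.6, 23.5, 18.1 and 17.1 CPM in the F2 no-stress mice and 12.4, 14.8, 14.97, 8.45 and 18.5 CPM in the F2 stress mice. Of the F2 stress libraries, 4 of 5 lay below all F2 no-stress libraries, and replicate 15 lay among them. This gave a log2 fold change of −0.49 ± 0.14 (adjusted p = 0.0411, edgeR), with group means of 19.3 ± 2.52 and 13.8 ± 3.72 CPM (SD, n = 5 each).

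The 3 calls differed in how far they rested on single libraries. Egfl7 was called in all 20 fits that left out 1 library (edgeR adjusted p from 0.00297 to 0.0449). Tie1 lost its call without F2 stress replicate 11, 12 or 13 or F2 no-stress replicate 16 or 17, with an adjusted p of up to 0.0963 and log2 fold changes from −0.69 to −0.50 over all such fits. Cldn5 lost its call in 12 of them: without F1 stress 2 or 4, F1 no-stress 7 or 9, F2 stress 11, 12, 13 or 14, or F2 no-stress 16, 17, 18 or 19. In those 12 fits its log2 fold change ran from −0.52 to −0.35, with an adjusted p of up to 0.119. When the fit held the F2 groups alone, none of the 3 was called (adjusted p = 0.0921 for Egfl7, 0.0993 for Tie1 and 0.171 for Cldn5).

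**Figure D2:**
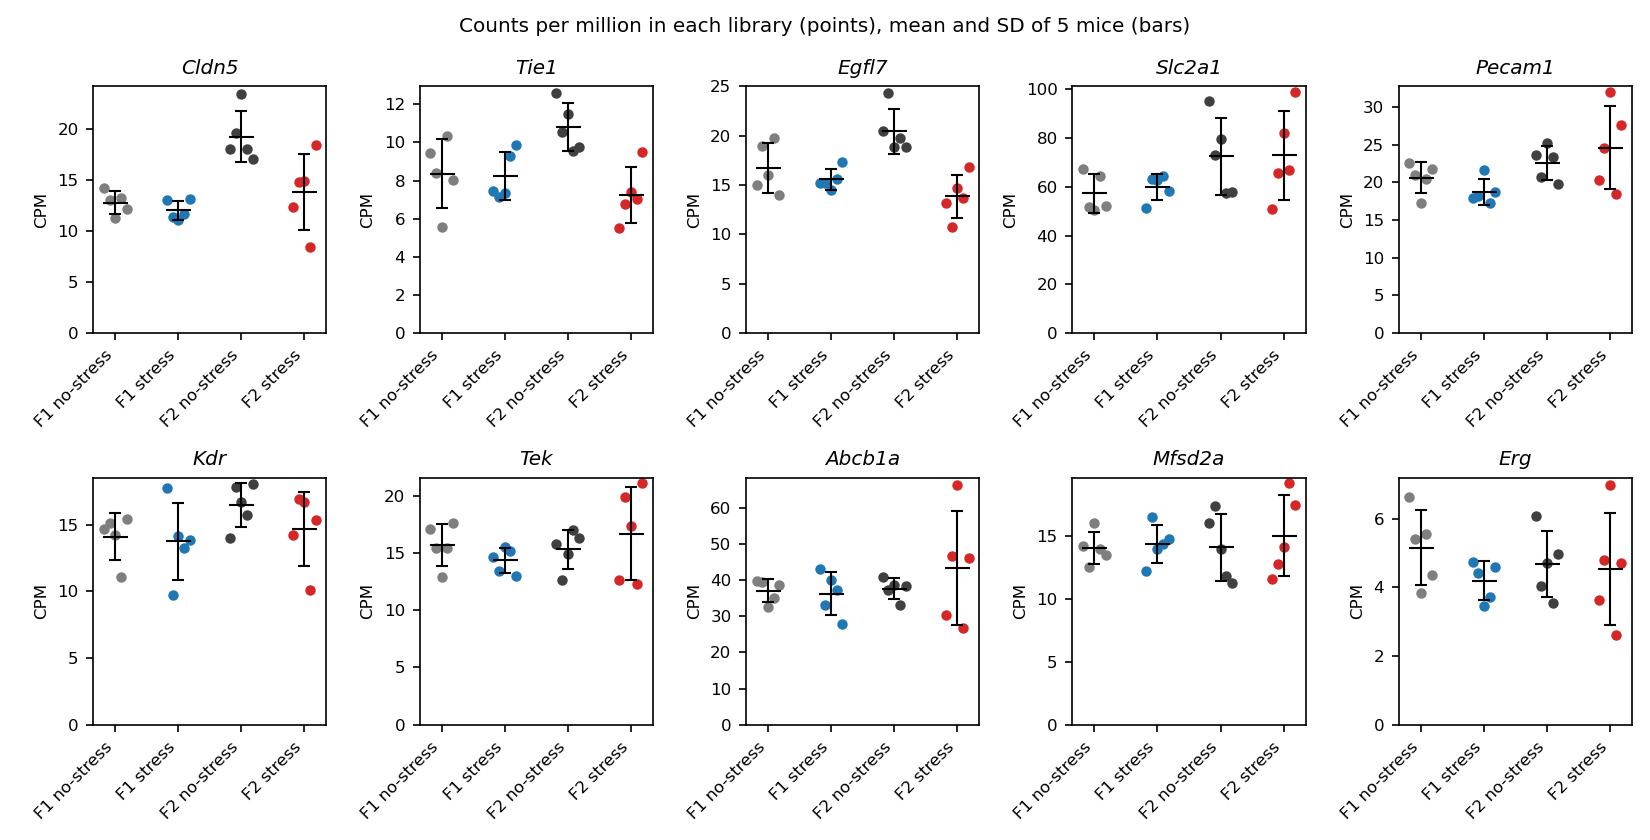
CPM of 10 members in each library (points, 5 mice a group), with the group mean and SD. In Egfl7 and Tie1 all F2 stress points lie below all F2 no-stress points, while the points of Slc2a1, Pecam1, Kdr, Tek, Abcb1a, Mfsd2a and Erg overlap between the F2 groups.

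Of the 8 receptors and receptor partners, Tie1 was lower in F2 stress mice and 7 were not called. Eng (endoglin), a co-receptor for transforming growth factor beta, had a log2 difference of −0.50 ± 0.15 with an edgeR adjusted p of 0.0518, from 21.1 ± 3.38 CPM in F2 no-stress to 15.001 ± 4.62 CPM in F2 stress mice (SD, n = 5 each). DESeq2 and limma-voom called it (adjusted p = 0.0298 and 0.0347). Tek had 15.8, 12.6, 14.9, 17.005 and 16.3 CPM in F2 no-stress and 12.6, 19.9, 17.4, 12.3 and 21.2 CPM in F2 stress mice. Tek, the receptor of the angiopoietins, thus had 3 F2 stress libraries above and 1 below all F2 no-stress libraries, with a log2 fold change of 0.12 ± 0.14 (edgeR adjusted p = 0.633). Kdr had 14.04, 17.8, 16.7, 15.7 and 18.1 CPM in F2 no-stress and 14.2, 16.9, 16.7, 10.1 and 15.4 CPM in F2 stress mice. For Kdr, the main signalling receptor for vascular endothelial growth factor, the groups overlapped, with a log2 fold change of −0.17 ± 0.15 (edgeR adjusted p = 0.485, 95% interval −0.47 to 0.12). For the other 4, log2 fold changes were −0.15 (Flt1, a receptor for the same ligand), 0.05 (Ptprb, a phosphatase that restrains Tek), −0.31 (Robo4, a guidance receptor) and 0.01 (Ramp2), with adjusted p from 0.295 to 0.961.

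Among the 6 junction and adhesion genes, Cldn5 was the 1 called in F2. Ocln (occludin), another tight junction protein, had a log2 fold change of 0.27 ± 0.13 (edgeR adjusted p = 0.193), and Tjp1, the scaffold ZO-1, of 0.06 ± 0.10 (0.759). Pecam1 had 23.6, 20.7, 25.2, 23.4 and 19.74 CPM in F2 no-stress and 20.4, 24.5, 32.004, 18.4 and 27.6 CPM in F2 stress mice. Pecam1, an adhesion molecule of endothelium in general, overlapped between the groups, and its log2 fold change was 0.12 ± 0.12 (edgeR adjusted p = 0.571, 95% interval −0.12 to 0.36). Cdh5 (VE-cadherin) had −0.03 (95% interval −0.36 to 0.30) and the adhesion gene Esam −0.19 (95% interval −0.49 to 0.10).

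None of the 8 transporters was called in F2 by edgeR, DESeq2 or limma-voom. Of the 8, 0 had an unadjusted p below 0.05 in edgeR, against 4274 of all 16727 genes. In 7 of 8 the log2 fold change was above 0, also with relative log expression factors and with library totals, at a median of 0.12. Some of these signs rested on single libraries. With 1 library left out, the lowest values were −0.13 for Slc2a1, −0.02 for Mfsd2a and −0.01 for Abcb1a. With an offset for GC content and length, described below, Slc16a1 went below 0 (−0.08) and Bsg above it (0.21). Slc2a1 had 95.2, 73.02, 79.6, 57.5 and 57.9 CPM in F2 no-stress and 50.8, 65.9, 82.3, 67.1 and 98.9 CPM in F2 stress mice. The F2 stress values of Slc2a1 reached both below and above the F2 no-stress values, with a log2 fold change of 0.00 ± 0.15 (95% interval −0.30 to 0.30, edgeR adjusted p = 0.997). Abcb1a had 40.8, 37.2, 38.5, 33.2 and 38.4 CPM in F2 no-stress and 30.4, 46.8, 66.4, 26.7 and 46.1 CPM in F2 stress mice. For Abcb1a, which encodes the drug efflux pump P-glycoprotein, 3 F2 stress libraries lay above and 2 below all F2 no-stress libraries, and the log2 fold change was 0.20 ± 0.18 (edgeR adjusted p = 0.518). Mfsd2a had 16.02, 17.3, 13.96, 11.8 and 11.2 CPM in F2 no-stress and 11.6, 12.7, 14.1, 19.2 and 17.4 CPM in F2 stress mice. Mfsd2a, a lipid carrier that restrains vesicle transport across the barrier, overlapped between the groups, with a log2 fold change of 0.09 ± 0.14 (edgeR adjusted p = 0.731). Among the rest, log2 fold changes were 0.23 for the efflux pump gene Abcg2, 0.22 for Slco1a4, 0.15 for Slco1c1, 0.04 for the lactate carrier gene Slc16a1 and −0.08 for Bsg, with adjusted p from 0.372 to 0.878. With replicates 14 (F2 stress) and 20 (F2 no-stress) both left out, Slco1a4 was called higher (log2 fold change 0.41, edgeR adjusted p = 0.0450).

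The 4 transcription factors had log2 fold changes below 0 in F2 with each set of scaling factors, and none was called. Sox18 had −0.68 ± 0.25 (edgeR adjusted p = 0.0880), Sox17 −0.40 ± 0.23 (0.284) and Fli1 −0.28 ± 0.22 (0.436). Erg had 6.07, 4.06, 4.70, 3.55 and 4.99 CPM in F2 no-stress and 3.64, 4.80, 6.99, 2.61 and 4.72 CPM in F2 stress mice. The F2 stress range of Erg held the whole F2 no-stress range, and the log2 fold change was −0.04 ± 0.21 (edgeR adjusted p = 0.924). With 1 library left out, the log2 fold change of Erg ran from −0.26 to 0.10, so its sign rested on single libraries. Sox18 was called lower without F2 stress replicate 15 (adjusted p = 0.0393) or without F2 no-stress replicate 20 (0.0393).

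Of the 8 secreted and surface genes, Egfl7 was lower in F2 stress mice and 7 were not called. The highest log2 fold changes were those of Ly6c1 (0.28 ± 0.14, edgeR adjusted p = 0.219), Ly6a (0.27 ± 0.17, 0.342) and Nostrin, a trafficking gene of nitric oxide synthase (0.28 ± 0.27, 0.545). Itm2a had 0.16, the sialomucin genes Podxl and Emcn 0.12 and 0.09, and Vwf, which encodes a clotting protein, −0.28 ± 0.31. Without F2 stress replicate 14, Ly6c1 and Ly6a were called higher (adjusted p = 0.0446 and 0.0361). Ly6c1, Ly6a and Abcb1a have close paralogs, and how reads shared with them were counted is not known, so their values are uncertain. Over all 34 members, 15 log2 fold changes were below 0 and 19 above, with a median of 0.03, against 0.00 over all genes tested. Leaving out 1 library moved that median to between −0.06 (without F2 stress replicate 13, with 14 values above 0) and 0.09 (without F2 stress replicate 14), and it was below 0 without F2 stress replicate 15 (−0.03) as well.

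**Figure D3:**
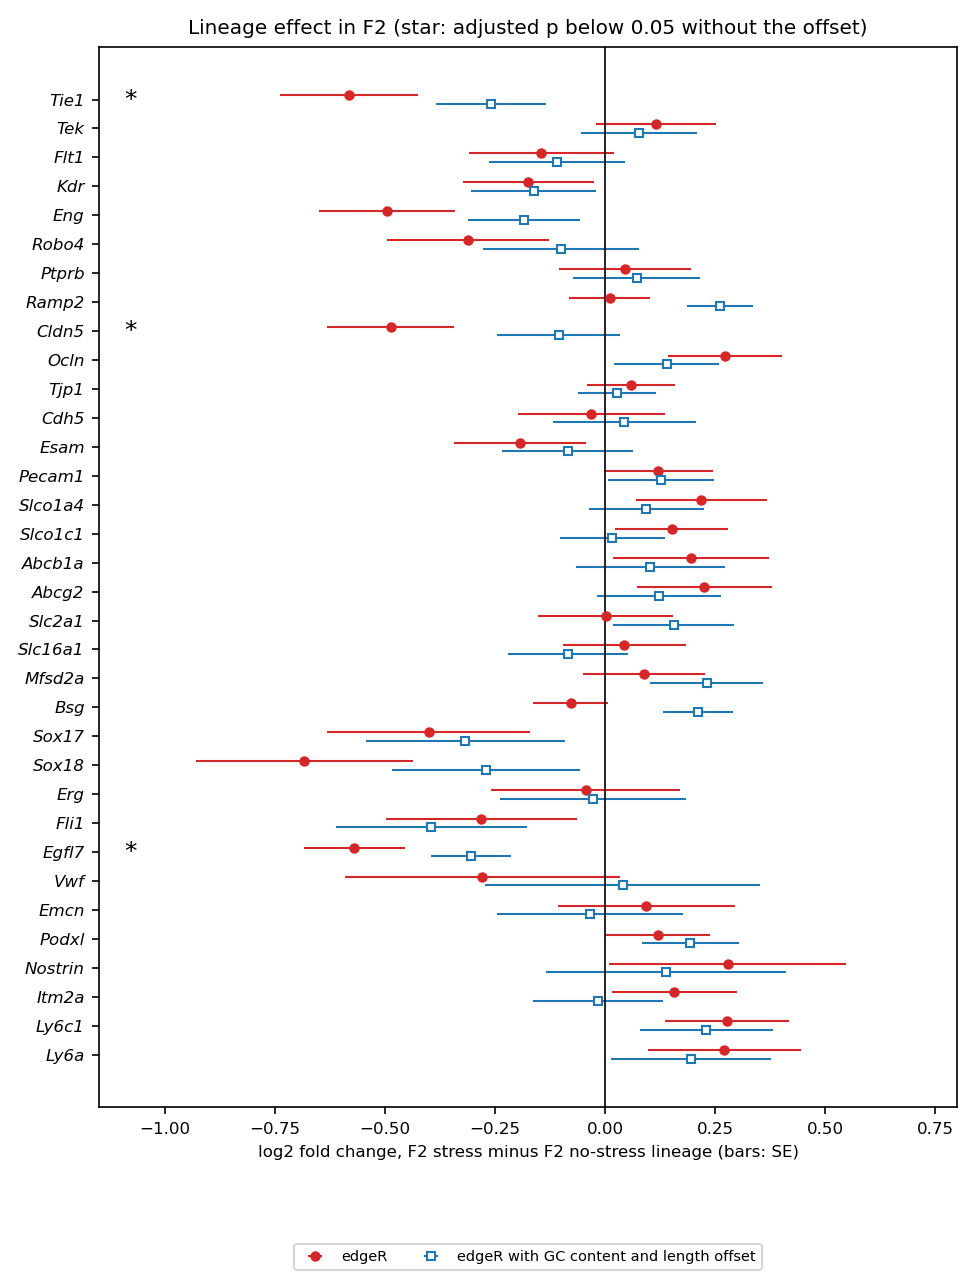
Log2 fold change of each member, F2 stress minus F2 no-stress lineage, with SE, in edgeR (red) and in edgeR with the GC content and length offset (blue squares); stars mark the 3 members with adjusted p below 0.05 without the offset. Cldn5, Tie1 and Egfl7 lie at −0.49, −0.58 and −0.57 without and at −0.11, −0.26 and −0.31 with the offset.

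The F2 log2 fold change of a member went along with the GC content of its longest transcript. Above the members' median GC content of 50.3%, 13 of 17 members had a log2 fold change below 0 (median −0.19), and below it 2 of 17 did (median 0.15). Spearman's rho was −0.740 across the 34 members and −0.539 across 16692 genes. These are correlations across genes that share the same 20 libraries, given as a description. GC content was 60.5% in Cldn5, 57.6% in Tie1, 57.05% in Egfl7, 57.4% in Eng and 60.9% in Sox18. At the other end it was 39.2% in Abcg2, 40.3% in Slco1a4, 40.7% in Emcn and 41.7% in Itm2a. GC-rich members with values close to 0 included Bsg (57.6%, log2 fold change −0.08), Ramp2 (56.7%, 0.01) and Slc2a1 (54.02%, 0.00). Of all genes in the ninth of 10 bins of GC content, which holds Tie1, Egfl7 and Eng, 14.2% were called lower in F2 stress mice, and of the last bin, which holds Cldn5 and Sox18, 26.8%.

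The libraries differed in the same respect. The log2 difference between the GC-richest and the GC-poorest bin of genes ran from −0.10 to 0.61 in F2 no-stress, from −0.40 to 0.21 in F2 stress, from −0.40 to 0.13 in F1 no-stress and from −0.27 to 0.12 in F1 stress libraries. When an offset took out the relation of each library to GC content and length, 0 members were called, and 8 genes in all. With this offset the log2 fold change was −0.31 ± 0.09 for Egfl7 (edgeR adjusted p = 0.135), −0.26 ± 0.12 for Tie1 (0.324), −0.11 ± 0.14 for Cldn5 (0.761), −0.18 ± 0.13 for Eng (0.509) and −0.27 ± 0.21 for Sox18 (0.571). The GC-rich members that had been close to 0 moved above it, to 0.21 ± 0.08 for Bsg (adjusted p = 0.218), 0.26 ± 0.07 for Ramp2 (0.116) and 0.16 ± 0.14 for Slc2a1 (0.624). Over all 34 members 19 values were above 0 and 15 below, as without the offset, but not in the same members. Cdh5 (0.04), Bsg and Vwf (0.04) went above 0, and Emcn (−0.03), Itm2a (−0.02) and Slc16a1 (−0.08) went below it. The part of this library difference in the F2 values of the members was not tested.

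**Figure D4:**
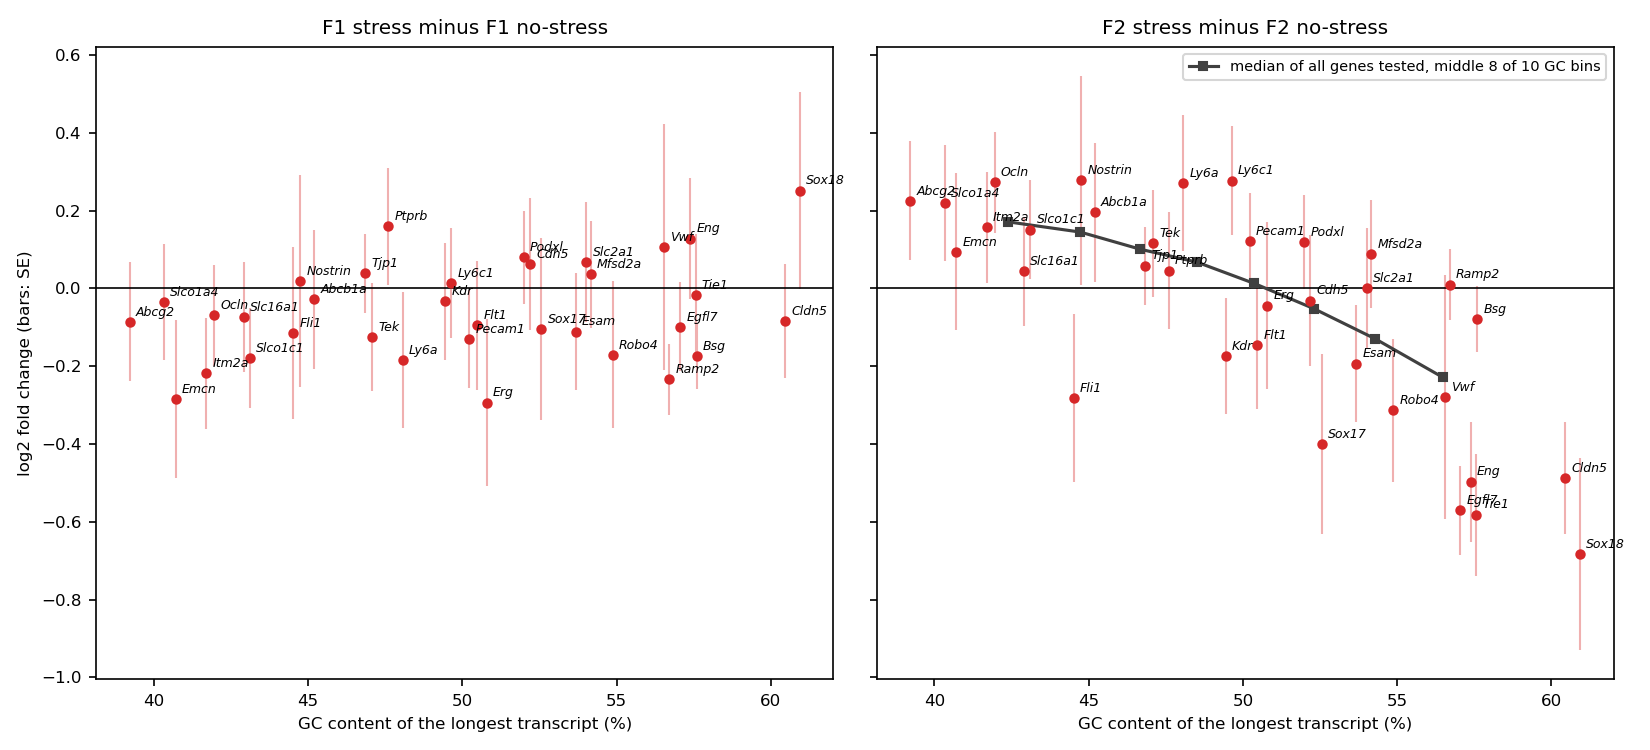
Log2 fold change of the 34 members against the GC content of the longest transcript in percent, for F1 (left) and F2 (right), where a line gives medians of all genes in GC bins. In F2 the members run from above 0 at low to below 0 at high GC content (rho −0.740), and in F1 rho was 0.228.

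In the F1 generation no member was called between the lineages by edgeR, DESeq2 or limma-voom, and of all genes edgeR called 0%. Ramp2 was the 1 member with an unadjusted p below 0.05 (log2 fold change −0.23 ± 0.09, edgeR adjusted p = 0.739). Over all genes, 1030 of 16727 had an unadjusted p below 0.05. Of the 34 log2 fold changes, 23 were below 0 and 11 above, at a median of −0.08 against 0.00 over all genes, and with library totals 21 were below 0. The median was −0.04 without F1 stress replicate 2 and −0.05 without F1 no-stress replicate 6. Markers of other cells went both ways in the same comparison. Below 0 were 12 of 12 microglial markers (median −0.21) and 5 of 5 red blood cell markers (median −0.12). So were 7 of 9 oligodendrocyte (−0.07) and 6 of 10 astrocyte markers (−0.07). Above 0 were 8 of 10 fibroblast and meningeal markers (0.22) and 8 of 14 mural cell markers (0.07). The same held for 7 of 10 neuronal (0.07) and 2 of 3 choroid plexus markers (0.22). None of these markers was called, and the part of these cells in the members' values was not tested. The members' log2 fold changes ran from −0.29 (Erg) to 0.25 (Sox18), with adjusted p from 0.739 to 0.989.

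The 3 genes called in F2 had overlapping values in the F1 groups. Egfl7 had 14.98, 18.9, 16.02, 19.73 and 13.98 CPM in F1 no-stress and 15.2, 15.2, 14.4, 15.7 and 17.3 CPM in F1 stress mice. Tie1 had 9.44, 8.39, 5.57, 10.4 and 8.02 CPM in F1 no-stress and 7.46, 7.15, 7.37, 9.29 and 9.85 CPM in F1 stress mice. Cldn5 had 14.3, 13.1, 11.3, 13.3 and 12.2 CPM in F1 no-stress and 13.03, 11.4, 11.1, 11.6 and 13.1 CPM in F1 stress mice. Neither group lay wholly above the other in any of them. The log2 fold changes were −0.10 ± 0.11 for Egfl7, −0.02 ± 0.16 for Tie1 and −0.08 ± 0.15 for Cldn5 (edgeR adjusted p = 0.828, 0.982 and 0.886).

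The transporters, receptors and adhesion genes described by library above overlapped between the F1 groups as well. Slc2a1 had 67.6, 51.9, 50.6, 64.7 and 52.3 CPM in F1 no-stress and 51.2, 63.2, 62.7, 64.3 and 58.4 CPM in F1 stress mice, with a log2 fold change of 0.07 ± 0.15 (edgeR adjusted p = 0.915). Abcb1a had 39.8, 39.4, 32.4, 35.03 and 38.7 CPM in F1 no-stress and 42.9, 33.2, 40.1, 37.2 and 27.8 CPM in F1 stress mice (−0.03 ± 0.18, 0.974). Mfsd2a had 14.2, 12.6, 16.02, 13.95 and 13.4 CPM in F1 no-stress and 12.2, 16.5, 13.95, 14.4 and 14.7 CPM in F1 stress mice (0.04 ± 0.14, 0.953). For these 3 transporters the F1 ranges were narrower than the F2 stress range. Pecam1 had 22.6, 20.9, 17.3, 20.5 and 21.7 CPM in F1 no-stress and 17.9, 18.2, 21.7, 17.3 and 18.7 CPM in F1 stress mice (−0.13 ± 0.12, 0.790). Kdr had 14.7, 15.1, 14.2, 11.1 and 15.4 CPM in F1 no-stress and 17.8, 9.73, 14.2, 13.2 and 13.9 CPM in F1 stress mice (−0.03 ± 0.15, 0.963). Tek had 17.1, 15.5, 12.9, 15.5 and 17.6 CPM in F1 no-stress and 14.7, 13.4, 15.5, 15.2 and 12.98 CPM in F1 stress mice (−0.13 ± 0.14, 0.820). The group ranges of both receptors and of Pecam1 overlapped. Erg had 6.63, 5.40, 3.84, 5.55 and 4.35 CPM in F1 no-stress and 4.75, 4.44, 3.47, 3.72 and 4.60 CPM in F1 stress mice (−0.29 ± 0.21, 0.746). Among the 10 F1 libraries, Erg was highest in a no-stress and lowest in a stress library, with overlap between the groups.

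The lineage effect in F2 was also tested against that in F1. No member was called by edgeR, DESeq2 or limma-voom, where edgeR called 2.52% of all genes, 0.837% higher and 1.68% lower. An unadjusted p below 0.05 was found for 4 members: Egfl7 (log2 difference of effects −0.47 ± 0.16, edgeR adjusted p = 0.102), Eng (−0.62 ± 0.22, 0.109), Sox18 (−0.94 ± 0.35, 0.131) and Tie1 (−0.56 ± 0.22, 0.146). Over all genes, 3551 of 16727 had an unadjusted p below 0.05. Cldn5 had −0.40 ± 0.20 (edgeR adjusted p = 0.265). The F2 effects on Cldn5, Tie1 and Egfl7 were thus not shown to differ from the F1 effects. The difference of effects was above 0 in 7 of 8 transporters (median 0.17) and in 6 of 8 secreted and surface genes, with the highest values in Ly6a (0.45 ± 0.25), Emcn (0.38 ± 0.29) and Itm2a (0.38 ± 0.20). It was −0.07 for Slc2a1, 0.25 for Pecam1, −0.14 for Kdr, 0.24 for Tek, 0.22 for Abcb1a, 0.05 for Mfsd2a and 0.25 for Erg, with adjusted p from 0.437 to 0.911. Over all members, 19 were above 0 and 15 below, and with the GC content and length offset 26 and 8. Of all 16727 genes, 8267 were above 0 without and 9666 with the offset. The members' median without the offset was 0.05, and it was below 0 without F2 stress replicate 13 (−0.02) or F2 no-stress replicate 19 (−0.003).

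Single libraries moved the count of members called in this comparison. Without F2 stress replicate 14, Slco1c1 (0.46), Itm2a (0.52) and Ly6a (0.62) were called higher (edgeR adjusted p = 0.0361, 0.0288 and 0.0377). Without F2 stress replicate 15, Eng was called lower (−0.80, adjusted p = 0.0296). The fits that left out any other single library called 0 members. Across the 34 members Spearman's rho between GC content and the difference of effects was −0.714, and with the offset the differences were −0.21 for Egfl7, −0.28 for Eng, −0.57 for Sox18, −0.20 for Tie1 and −0.05 for Cldn5.

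Between generations of the no-stress lineage, Cldn5 was higher in F2 than in F1 mice and no member was lower. Of all genes, 2.0% were called, 1.47% higher and 0.532% lower, so 1 of 34 members is a share near the background. All F2 no-stress libraries of Cldn5 (17.1 to 23.5 CPM) lay above all F1 no-stress libraries (11.3 to 14.3 CPM), and the log2 fold change was 0.60 ± 0.14 (edgeR adjusted p = 0.0415). The 5 F2 no-stress libraries also serve in the F2 lineage comparison, so both comparisons share them. For Cldn5 the log2 fold change was 0.60 here and −0.49 between the F2 lineages. For Eng it was 0.56 (adjusted p = 0.0596) and −0.50, for Sox18 0.74 (0.104) and −0.68, for Tie1 0.38 (0.175) and −0.58, and for Egfl7 0.30 (0.144) and −0.57. In these 5 genes the F2 no-stress group had the highest mean of the 4 groups. The mean of Cldn5 was 12.8 ± 1.12 CPM in F1 no-stress, 12.1 ± 0.951 in F1 stress, 19.3 ± 2.52 in F2 no-stress and 13.8 ± 3.72 in F2 stress mice (SD, n = 5 each).

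The other 33 members were not called, and 24 of all 34 log2 fold changes were above 0, at a median of 0.11 against 0.02 over all genes. The median was 0.23 for receptors, 0.19 for junction genes, 0.31 for transcription factors, 0.02 for transporters and 0.04 for secreted and surface genes. With the offset these medians were 0.18, 0.13, 0.31, 0.05 and 0.06, in that order, against −0.03 over all genes. Among genes given by library above, the log2 fold change was 0.35 ± 0.15 for Slc2a1, 0.14 ± 0.12 for Pecam1, 0.24 ± 0.15 for Kdr, −0.03 ± 0.14 for Tek, 0.03 ± 0.18 for Abcb1a, 0.01 ± 0.14 for Mfsd2a and −0.13 ± 0.21 for Erg, with edgeR adjusted p from 0.208 to 0.971. Cldn5 lost its call in 13 of the 20 fits that left out 1 library: without F1 stress 2, 3, 4 or 5, F1 no-stress 7, 8, 9 or 10, F2 stress 13, or F2 no-stress 16, 17, 18 or 19 (log2 fold changes over all 20 from 0.52 to 0.64, adjusted p of up to 0.136). It also lost it without the filter on low counts (adjusted p = 0.0604), with the no-stress groups alone (0.0798) and with the GC content and length offset (0.32 ± 0.14, 0.334). Spearman's rho between GC content and this log2 fold change was 0.691 across the members and 0.477 across all genes. Generation and any handling that the mice of a generation shared cannot be told apart.

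Between generations of the stress lineage no member was called by edgeR, DESeq2 or limma-voom, where edgeR called 0.0120% of all genes, 0.0120% higher and 0% lower. In this lineage the log2 fold change was above 0 in 30 of 34 members (29 with library totals), at a median of 0.17 against 0.01 over all genes. An unadjusted p below 0.05 was found for 4 members: Pecam1 (0.39 ± 0.12, edgeR adjusted p = 0.643), Ly6c1 (0.37 ± 0.14, 0.643), Ramp2 (0.22 ± 0.09, 0.668) and Slco1c1 (0.29 ± 0.13, 0.694). Over all genes, 1169 of 16727 had an unadjusted p below 0.05. The median of the members was 0.09 without F2 stress replicate 13, when 23 of 34 were above 0, 0.11 without F2 stress replicate 15 and 0.30 without F2 stress replicate 14. Markers of other cells went both ways. Above 0 were 12 of 12 microglial markers (median 0.18) and 7 of 9 oligodendrocyte markers (median 0.33). So were 7 of 10 astrocyte (0.10), 6 of 10 fibroblast and meningeal (0.07) and 8 of 14 mural cell markers (0.03). Below 0 were 8 of 10 neuronal (−0.08), 4 of 5 red blood cell (−0.03) and 3 of 3 choroid plexus markers (−0.50). None of these markers was called, and the part of these cells in the members' values was not tested. All 5 F2 stress libraries of Ramp2 (41.1 to 49.5 CPM) lay above all 5 F1 stress libraries (35.8 to 40.3 CPM). All 8 transporters and all 6 junction genes had values above 0, and the 4 genes below 0 were Sox18 (−0.19), Tie1 (−0.18), Egfl7 (−0.17) and Eng (−0.06). With library totals Sox17 was below 0 too. Spearman's rho between GC content and this log2 fold change was −0.422 across the members and −0.198 across all genes. With the GC content and length offset Eng was above 0 (0.02), as were 31 of 34 members, against 9472 of all 16727 genes. Among genes given by library above, the log2 fold change was 0.20 ± 0.15 for Cldn5, 0.28 ± 0.15 for Slc2a1, 0.26 ± 0.18 for Abcb1a, 0.07 ± 0.14 for Mfsd2a, 0.22 ± 0.14 for Tek, 0.09 ± 0.15 for Kdr and 0.12 ± 0.22 for Erg, with adjusted p from 0.734 to 0.935.

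The members differed in how much they varied between mice of a group. The SD within groups, in log2 CPM, was largest for Vwf (0.546), Nostrin (0.446) and Sox18 (0.410) and smallest for Bsg (0.130), Ramp2 (0.146) and Tjp1 (0.156). Vwf ran from 8.73 CPM in F2 stress replicate 14 to 41.6 CPM in F2 stress replicate 13. The summed CPM of the 34 members was 1043 to 1161 in F1 no-stress, 990 to 1130 in F1 stress, 1082 to 1282 in F2 no-stress and 900 to 1443 in F2 stress libraries. The F2 stress range held the ranges of the other 3 groups.

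**Figure D5:**
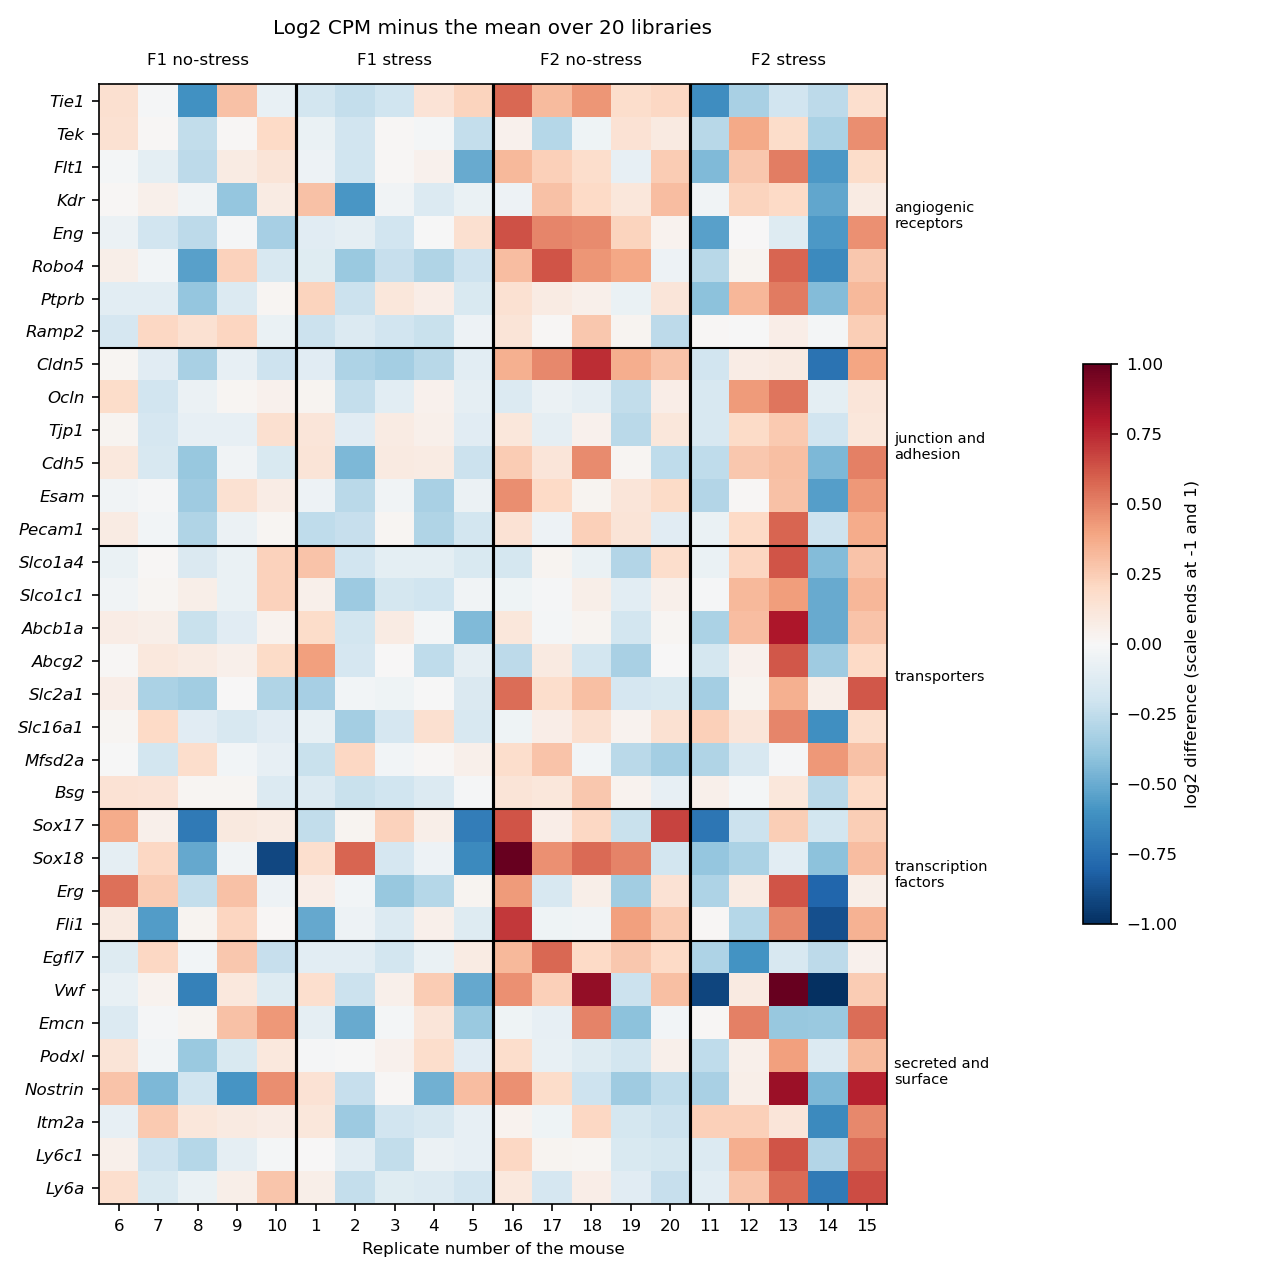
Log2 CPM of each member minus its mean over 20 libraries; columns are mice by group, rows are genes by role, and the colour scale ends at −1 and 1. F2 stress replicate 14 is low in most rows (lowest of all libraries in 20 of 34) and F2 stress replicate 13 high (highest in 15).

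Genes of pathways that act on brain endothelium were counted in the same fits. Of 17 barrier Wnt genes, 1 was called in F2 and was higher in stress lineage mice: Fzd4, the receptor through which Wnt ligands and norrin maintain the barrier, with 13.6 ± 1.39 CPM in F2 no-stress and 19.8 ± 2.61 CPM in F2 stress mice (log2 fold change 0.54 ± 0.10, edgeR adjusted p = 0.00848). Of 8 endothelial Notch genes, 2 were lower. Over all genes, 5.28% were called lower and 2.64% higher in F2, and counts in lists this small are not results about the pathways. The ligand gene Jag2 had 28.5 ± 5.23 and 16.7 ± 5.98 CPM (log2 fold change −0.78 ± 0.20, edgeR adjusted p = 0.0251), and the receptor gene Notch1 25.6 ± 2.04 and 17.3 ± 3.61 CPM (−0.58 ± 0.14, 0.0201). With the GC content and length offset none of the 3 was called, at 0.50 for Fzd4 (adjusted p = 0.0587), −0.31 for Jag2 (0.342) and −0.23 for Notch1 (0.363). Fzd4 (0.54 ± 0.14) and Jag2 (−1.09 ± 0.29) were also called in the difference of effects between generations (adjusted p = 0.0472 and 0.0472), and both calls were lost with the offset, at 0.58 for Fzd4 (adjusted p = 0.118) and −0.59 for Jag2 (0.224). Other brain cells make these 3 genes too, and the endothelial share of their RNA was not tested.

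In 5 further lists edgeR called 0 genes in F2: 9 partners of vascular endothelial growth factor and the angiopoietins, 10 genes of transforming growth factor beta and bone morphogenetic protein signalling, 35 other endothelial genes, 8 other tight junction genes and 14 other barrier transporters. An unadjusted p below 0.05 was found for 2, 2, 4, 2 and 0 of them, in that order, against 4274 of all 16727 genes. The median log2 fold changes were 0.18, −0.23, 0.09, 0.06 and −0.06. With the offset these medians were 0.27, 0.01, 0.07, 0.03 and −0.02, so that of the transforming growth factor beta and bone morphogenetic protein list changed sign. In the no-stress lineage, Gkn3, a marker of arterial endothelium, was lower in F2 (1.51 ± 0.511 CPM) than in F1 (3.01 ± 0.677 CPM), with a log2 fold change of −0.98 ± 0.23 (edgeR adjusted p = 0.0351). With the offset Gkn3 had −0.96 (adjusted p = 0.131). In F1 and within the stress lineage edgeR called 0 genes of these vessel lists.

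Markers of neighbouring cells were counted beside the members. EdgeR called none of 14 mural cell, 10 fibroblast and meningeal, 5 red blood cell, 12 microglial, 10 astrocyte, 9 oligodendrocyte and 10 neuronal markers in any of the 5 comparisons, and in F2 6, 1, 0, 1, 4, 0 and 3 of them, in that order, had an unadjusted p below 0.05. Of all 16727 genes, 4274 had an unadjusted p below 0.05 in F2. The median F2 log2 fold change of the mural cell markers was −0.26, and −0.11 with the GC content and length offset. Their summed CPM was 242 to 275 in F1 no-stress, 246 to 274 in F1 stress, 291 to 322 in F2 no-stress and 199 to 361 in F2 stress libraries. The red blood cell markers summed to 113 to 253 CPM in F2 no-stress and 86.3 to 279 CPM in F2 stress libraries. Of 7 choroid plexus markers 3 had enough counts to be tested, and Folr1, Kcne2, Otx2 and Slc4a5 were at 0 in 9, 10, 2 and 5 of the 20 libraries. The part of these cells in the F2 values of Cldn5, Tie1 and Egfl7 was not tested.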

How the data were processed

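RNA was sequenced from amygdala punches of 20 mice with a stranded poly-A kit. Per the submitters' processing notes, STAR 2.5.3a and GRCm38 were used; no source used here gives the counting tool, annotation or strand setting. The values the authors deposited are whole-number counts per Ensembl gene, already close to a common total (13654890 to 13714805), so precision from depth is not known.

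Groups came from the sample titles. Counts were tested in edgeR 4.0.16 by quasi-likelihood F test (R 4.3.3; robust dispersion, TMM factors from 0.956 to 1.042, filterByExpr, 1 mean per group, all 20 libraries in 1 fit), with Benjamini-Hochberg adjustment over 16727 genes and a threshold of 0.05. CPM were scaled by TMM. SE is the size of the log2 fold change divided by the square root of F. GC content and length come from GENCODE M21 and were known for 16692 tested genes. Alternatives were DESeq2 1.42.0, limma-voom (limma 3.58.1), other factors and filters, an offset for GC content and transcript length fitted per library (splines, 5 degrees of freedom), only the groups compared, an adjusted p of 0.1, and each library left out. F2 stress replicate 14 and no-stress replicate 20, low in region markers in an earlier analysis, were also left out together, chosen after the data were seen. Libraries of a pair differed beyond sampling noise (chi-square per gene of at least 5.80).

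Library values are given for every member called and for Cldn5, Slc2a1, Pecam1, Kdr, Tek, Abcb1a, Mfsd2a and Erg. Called genes of other lists are named, up to 4 per comparison by smallest p; other members described at length were picked after their values were seen. The members and lists were chosen with earlier results of these data known. The labels call the mice of a group biological replicates. Figures were drawn with Python 3.11.15.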

Additional observations from a re-analysis of the deposited data

Results flagged for a closer look

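Values of a member in 1 of 5 libraries that stood apart from the other 4 were looked for in all 136 sets of a member and a group, by Dixon's gap test (a gap above 0.71 of the range). Chance gives about 1 in 20, and 2 of the 136 were found. That is a smaller share than chance gives, so the 2 values are listed and not read as results. Kdr, the receptor of vascular endothelial growth factor, had 11.1 CPM in F1 no-stress replicate 9, while the other 4 F1 no-stress libraries had 14.2 to 15.4 CPM. Slco1a4, an organic anion transporter, had 70.1 CPM in F1 stress replicate 1, and the other 4 F1 stress libraries had 50.6 to 53.8 CPM.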

How the results depend on the processing

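No paired analysis was possible because each of the 20 mice has its own replicate number. In F2, 3 members were called; 4 were with DESeq2, limma-voom, library totals or a CPM filter, 2 without a low-count filter, 5 at an adjusted p under 0.1, 0 with the GC content and length offset (8 genes in all) and 0 with only the groups compared (0 genes in all). Leaving out 1 library gave 1 to 5, and leaving out replicates 14 (F2 stress) and 20 (F2 no-stress) together, chosen after the data were seen, gave 5 (Cldn5, Tie1, Egfl7 and Eng lower, Slco1a4 higher). For the difference between generations, 0 were called, 0 to 3 with 1 library left out and 2 without both; this comparison uses all 4 groups, so a fit of only the groups compared is the same fit. Within the no-stress lineage, 1 was called; 2 were with DESeq2, 2 at an adjusted p under 0.1, 2 without both, and 0 without a filter, with the offset or with only the groups compared; leaving out 1 library gave 0 to 2. In F1 and within the stress lineage 0 were called under every setting run. No called value changed sign under these settings. The cause of the changes was not tested, except that the fits with fewer libraries or groups hold fewer mice. Depth before the common total is not known, so no limit from depth can be given.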
